A study of Mus musculus with 10 samples.

Results

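The 10 genes described here encode regulators of mitochondrial biogenesis and oxidative metabolism: the coactivators *Ppargc1a* (PGC-1α) and *Ppargc1b* (PGC-1β), the estrogen-related receptors *Esrra*, *Esrrb* and *Esrrg*, the peroxisome proliferator-activated receptors *Ppara* and *Ppard*, the mitochondrial transcription factor *Tfam*, the nuclear respiratory factor *Nrf1*, and the striated muscle regulator *Perm1*. They were picked by gene symbol, with earlier results of these data known. They are 10 of the 57185 genes with counts in bulk RNA-seq of mouse left ventricle. The 10 genes all passed the filter on low counts, which kept 13455 genes. The study compared 5 MLPKO male mice with 5 cRADΔ/Δ-MLPKO male mice (labelled MLPKO-cRADKO) to ask how the loss of RAD, an inhibitory partner of the L-type calcium channel encoded by *Rrad*, changes gene expression in an established dilated cardiomyopathy. Polyadenylated RNA from the apical part of the ventricles was sequenced as 1 library per mouse.

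Both genotypes lacked muscle LIM protein (MLP, encoded by *Csrp3*) and carried floxed RAD alleles (RADfl/fl), and both received 1 dose of tamoxifen at 10 weeks of age (100 mg/kg, intraperitoneal), 1 month before collection. The labels give an age of 16 weeks, which is later than 1 month after a dose at 10 weeks. The sources used here do not settle this difference. The cRADΔ/Δ-MLPKO mice carried in addition the MYH6-MerCreMer transgene, in which the cardiac α-myosin heavy chain promoter restricts the tamoxifen-dependent recombinase to cardiomyocytes. Since MLPKO mice lacked this transgene, effects of RAD loss and of the activated recombinase cannot be told apart. No mice with intact MLP were part of these data.

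PGC-1 coactivators do not bind DNA themselves. They are recruited by receptors such as the ERRs and PPARs and by NRF1. They raise the transcription of genes for fatty acid oxidation, the tricarboxylic acid cycle and the respiratory chain, and of *Tfam*. The product of *Tfam* packages mitochondrial DNA and helps to start its transcription. The adult heart depends on this programme for most of its ATP, and a fall of PGC-1α, PPARα and ERR activity is a known feature of many models of heart failure.

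Promoter sequence shows which of the elements linked to these factors lie close to their own start sites. RefSeq (GRCm38.p6) gave 14 windows of 250 bases before annotated starts for 9 of the 10 genes, all but *Ppargc1b*. The windows below were placed on GRCm39 by exact match and are printed 5′ to 3′ on the strand of the gene, with capitals marking a matched motif. Bases that lie in an annotated exon of the gene were left out, except for *Tfam* and *Ppara*, whose windows overlap annotated exons and for which 30 bases around the match are shown. *Ppargc1a* and *Esrrg* are shown because they had the smallest p-values among the 10 genes (for *Esrrg*, the most downstream of 4 windows), and the others because they held a match.
*Ppargc1a*, chr5:51725069-51725317, minus strand: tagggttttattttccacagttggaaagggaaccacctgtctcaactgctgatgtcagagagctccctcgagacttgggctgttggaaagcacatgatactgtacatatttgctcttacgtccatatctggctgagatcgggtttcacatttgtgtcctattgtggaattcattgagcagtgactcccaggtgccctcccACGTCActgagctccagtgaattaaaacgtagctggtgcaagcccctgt
*Esrrg*, chr1:187729774-187730023, plus strand: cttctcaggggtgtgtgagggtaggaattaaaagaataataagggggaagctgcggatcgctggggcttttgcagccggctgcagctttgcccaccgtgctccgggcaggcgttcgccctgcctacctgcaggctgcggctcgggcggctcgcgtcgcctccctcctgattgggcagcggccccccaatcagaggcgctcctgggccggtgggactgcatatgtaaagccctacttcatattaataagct
*Perm1*, chr4:156300134-156300324, plus strand: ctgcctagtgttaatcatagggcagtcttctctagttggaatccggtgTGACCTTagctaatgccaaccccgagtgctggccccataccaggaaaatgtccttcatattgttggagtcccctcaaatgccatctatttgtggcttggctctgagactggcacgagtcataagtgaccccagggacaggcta
*Tfam*, chr10:71073904-71073933, minus strand: tcctgccgcggaCCGGAAGtccgggcttcc
*Ppara*, chr15:85619936-85619965, plus strand: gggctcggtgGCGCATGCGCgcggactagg

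The short cAMP response element (TGACGT, read on the opposite strand as the capitals ACGTCA) began 50 bases before the *Ppargc1a* start, and 6.47% of all 32851 RefSeq windows held this motif on either strand. The nuclear receptor core AAGGTCA, to which ERRs bind, lay 202 bases before the *Perm1* start on the opposite strand, and was found in 4.08% of all windows. *Tfam* held the GABP (NRF2) motif CCGGAAG 47 bases before its start (6.91% of windows), and *Ppara* the NRF1 motif (GCGCA and GCGC with 1 base of any kind between them) 31 bases before its start (3.74% of windows). None of the 14 windows held the longer ERR element TNAAGGTCA, which contains the nuclear receptor core, the full cAMP response element TGACGTCA, which contains the short form, or the PPAR element, a direct repeat of AGGTCA with 1 base between its copies, which were in 1.14%, 1.55% and 0.0335% of all windows. The 4 *Esrrg* windows held none of the 7 motifs searched. These matches describe letters within the windows only.

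Between 33457406 and 49965101 counts were obtained per mouse, and the 10 genes were covered by 334 to 22900 counts each in a single mouse. Low counts were mostly even in every library (73.7% or more), and whether mates of a read pair were counted one by one is not given in the sources used here, so the number of sequenced fragments may be lower than these counts. With all counts halved, none of the 10 genes passed the test either. *Rrad* itself was at 223 ± 66.2 CPM (counts scaled to the normalized library size) in MLPKO against 171 ± 29.9 CPM in cRADΔ/Δ-MLPKO hearts (SD, n = 5 each), with overlapping genotypes (log2 fold change −0.38, edgeR adjusted p = 0.290). *Csrp3* counts were present in all mice, at 1776 ± 917 in MLPKO and 840.1 ± 197 CPM in cRADΔ/Δ-MLPKO hearts (log2 fold change −1.08, edgeR adjusted p = 0.0666), so neither transcript separates the labels at the level of whole-gene counts. Exons that remain at the targeted *Csrp3* allele and full-length transcript cannot be told apart in gene counts. The 10 cardiomyocyte markers were abundant in all libraries, at a summed 82214 to 93460 CPM in MLPKO and 63923 to 77350 CPM in cRADΔ/Δ-MLPKO hearts. They were lower for 9 of 10 genes, 1 of them (*Tnnt2*) past the test. Summed endothelial markers were 760.0 to 886 CPM in MLPKO and 905 to 1032 CPM in cRADΔ/Δ-MLPKO hearts (7 of 8 higher, 1 of them, *Tek*, past the test), and macrophage markers 189 to 280.1 and 232 to 503 CPM (10 of 10 higher, none past the test). Mural cell markers were at 802 to 1014 and 1024 to 1192 CPM. Of the 7 past the filter, 5 were higher and 2 lower (log2 fold change −2.17 to 1.24), with *Rgs5* and *Acta2* higher past the test. Fibroblast markers were at 1335 to 1918 and 1156 to 2039 CPM. Of these, 4 were higher and 4 lower, with *Dpt* higher past the test. In bulk tissue, fewer cells of a type and less RNA per cell cannot be told apart, and the part of these shifts in the values below was not tested.

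Across the whole table, 369 of 13455 genes passed an edgeR adjusted p of 0.05, a background of 2.74%, with 127 higher (0.944%) and 242 lower (1.80%) in cRADΔ/Δ-MLPKO. None of the 10 regulators passed. At an unadjusted edgeR p under 0.05 there were 2 of 10, against 21.6% of all genes, and DESeq2 called the same 2, against 10.0% of the 12919 genes to which it gave an adjusted p. These were *Ppargc1a*, which was higher, and *Esrrg*, which was lower. The log2 fold change was above 0 for 8 of 10 genes (52.1% of all genes) with a median of 0.04 (0.01 over all genes). The count became 9 of 10 with upper quartile scaling, where *Tfam* changed sign, and 5 of 10 without MLPKO mouse 2, where the median was 0.00.

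**Figure D1:**
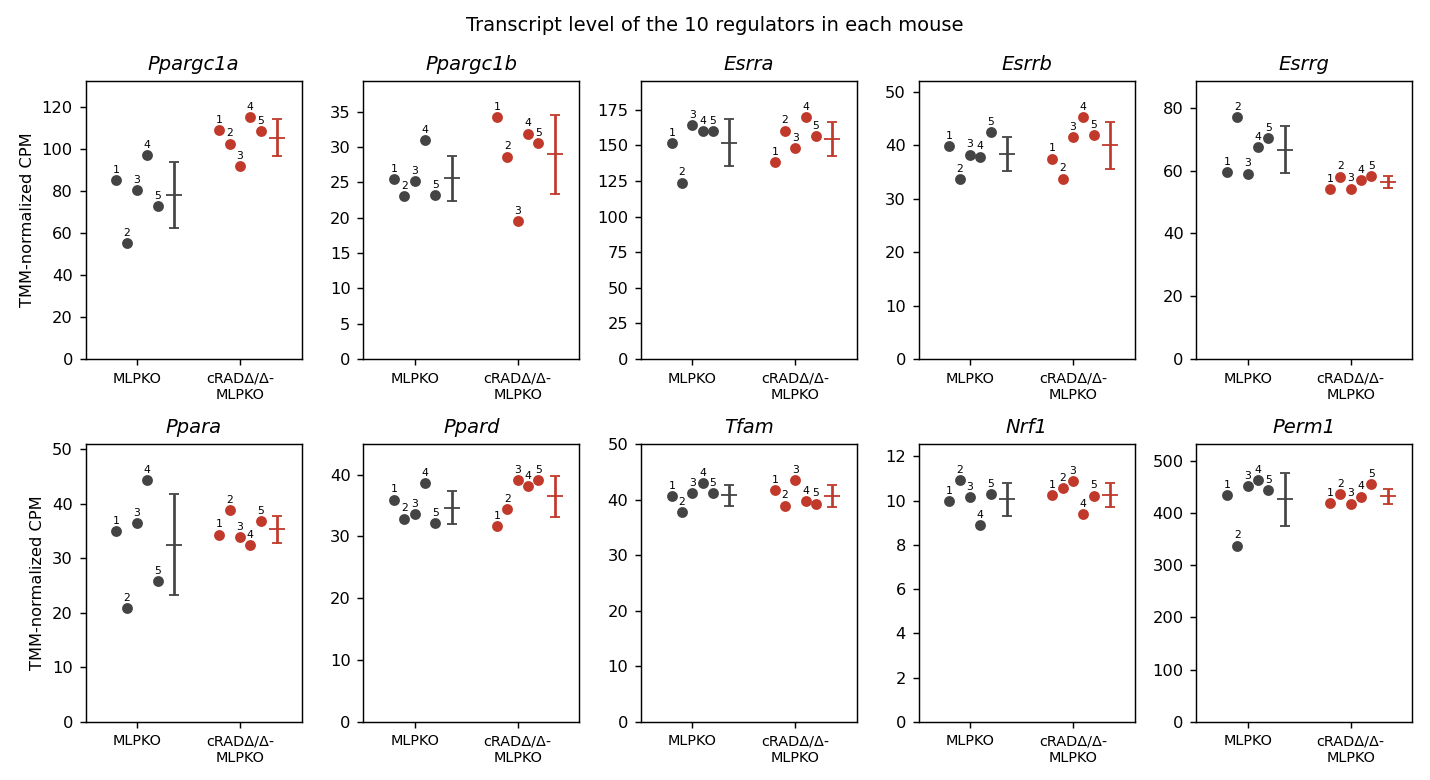
Normalized expression (TMM-normalized CPM, linear axis from 0) of the 10 regulators in each of 5 MLPKO and 5 cRADΔ/Δ-MLPKO mice, with mouse numbers above the points and bars giving mean and SD. *Esrrg* is the only panel without overlap between the genotypes. MLPKO mouse 2 is the lowest point of *Ppargc1a*, *Ppara*, *Esrra*, *Esrrb*, *Tfam* and *Perm1* and the highest of *Esrrg* and *Nrf1*.

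*Ppargc1a* (chr5:51611592-51725068, minus strand, GRCm39), the coactivator that responds to exercise, cold and β-adrenergic signalling, was at 85.2, 55.3, 80.4, 97.2 and 72.9 CPM in MLPKO mice 1 to 5. In cRADΔ/Δ-MLPKO mice 1 to 5 it was at 109, 103, 92.1, 115 and 109 CPM. The cRADΔ/Δ-MLPKO mice occupied the upper end, and only the highest MLPKO mouse (mouse 4) reached above the lowest cRADΔ/Δ-MLPKO mouse (mouse 3). The means were 78.2 ± 15.5 and 106 ± 8.71 CPM (SD, n = 5 each), a 1.35-fold difference (log2 fold change 0.43, standard error 0.13, 95% interval 0.16 to 0.71). The edgeR adjusted p was 0.0786 and the DESeq2 adjusted p 0.0203, so the call depended on the tool. It also depended on MLPKO mouse 4, without which the log2 fold change was 0.52 with an edgeR adjusted p of 0.0314. Without MLPKO mouse 2 it was 0.33 (edgeR adjusted p = 0.0676).

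*Ppargc1b*, the constitutive paralog of PGC-1α, was at 25.5, 23.0, 25.2, 31.0 and 23.3 CPM in MLPKO mice. The cRADΔ/Δ-MLPKO mice had 34.2, 28.7, 19.6, 31.9 and 30.5 CPM. Mouse 3 of the cRADΔ/Δ-MLPKO group was the lowest of all 10 mice, while the other 4 lay above the second highest MLPKO mouse. The log2 fold change was 0.18 (standard error 0.14, 95% interval −0.12 to 0.48, edgeR adjusted p = 0.482), and 0.30 without that mouse (edgeR adjusted p = 0.137). The same animal also had the lowest *Ppargc1a* of its group and was the only mouse with adipocyte markers, at a summed 89.3 CPM against 0.927 CPM or less in the other 9, and leaving it out gave a *Ppargc1a* log2 fold change of 0.48 (edgeR adjusted p = 0.105).

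The estrogen-related receptors are orphan nuclear receptors that occupy the promoters of most respiratory chain and tricarboxylic acid cycle genes. *Esrrg* (chr1:187340988-187947082, plus strand), the member tied to the postnatal switch to oxidative metabolism, was at 59.7, 77.0, 59.0, 67.6 and 70.3 CPM in MLPKO mice. It was at 54.2, 58.1, 54.3, 56.9 and 58.3 CPM in cRADΔ/Δ-MLPKO mice. All 5 cRADΔ/Δ-MLPKO mice lay below all 5 MLPKO mice, by a margin of under 1 CPM between the nearest 2, and such separation was seen in 6.61% of all genes (3.98% in this direction and 2.63% in the other). The means were 66.7 ± 7.56 and 56.4 ± 2.01 CPM (SD, n = 5 each). The log2 fold change was −0.24 (standard error 0.08, 95% interval −0.41 to −0.08), with an edgeR adjusted p of 0.0940 and a DESeq2 adjusted p of 0.0409. Without MLPKO mouse 2 it was −0.19 (edgeR adjusted p = 0.130).

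*Esrra* (chr19:6888338-6899336, minus strand), the most abundant ERR, was at 152, 124, 164, 160.1 and 160.0 CPM in MLPKO and 138, 160.5, 148, 169.7 and 157 CPM in cRADΔ/Δ-MLPKO mice. Only MLPKO mouse 2 stood below the range of the other group, and the log2 fold change was 0.02 (95% interval −0.16 to 0.21, edgeR adjusted p = 0.901), with the sign turning to −0.04 without that mouse. *Esrrb*, best known from pluripotent cells and also expressed in heart, ranged from 33.8 to 42.4 CPM in MLPKO and from 33.8 to 45.3 CPM in cRADΔ/Δ-MLPKO hearts (log2 fold change 0.06, 95% interval −0.13 to 0.24, edgeR adjusted p = 0.753). Neither interval reached beyond 0.24 on the log2 scale.

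PPARα is the main fatty acid-activated receptor of the cardiomyocyte, and PPARδ a related receptor with overlapping targets. *Ppara* was at 35.0, 20.9, 36.5, 44.4 and 25.8 CPM in MLPKO mice. In cRADΔ/Δ-MLPKO mice it was at 34.4, 38.8, 33.9, 32.4 and 36.9 CPM. The MLPKO mice held both the lowest and the highest values, and their coefficient of variation was 28.5% against 7.25% in cRADΔ/Δ-MLPKO. The log2 fold change of *Ppara* was 0.12 (standard error 0.17, 95% interval −0.24 to 0.48, edgeR adjusted p = 0.733), the widest interval among the 10 genes, and −0.00 without MLPKO mouse 2. *Ppard* ranged from 32.1 to 38.6 CPM in MLPKO and from 31.7 to 39.1 CPM in cRADΔ/Δ-MLPKO (log2 fold change 0.07, 95% interval −0.09 to 0.24, edgeR adjusted p = 0.620). Of their relatives, *Pparg*, the adipocyte PPAR, was at 9.43 ± 1.77 and 9.39 ± 1.22 CPM (SD, n = 5 each) in MLPKO and cRADΔ/Δ-MLPKO.

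*Tfam* was among the steadiest of the 10 genes, at 37.8 to 43.0 CPM in MLPKO and 39.0 to 43.6 CPM in cRADΔ/Δ-MLPKO (coefficients of variation 4.62% and 4.77%). Its log2 fold change was −0.00 (95% interval −0.12 to 0.11, edgeR adjusted p = 0.973), and its sign turned with upper quartile scaling (0.02). *Nrf1*, which activates nuclear genes of the respiratory chain and *Tfam*, ranged from 8.91 to 10.9 CPM in MLPKO and from 9.40 to 10.9 CPM in cRADΔ/Δ-MLPKO (log2 fold change 0.03, 95% interval −0.14 to 0.20, edgeR adjusted p = 0.867). The ranges overlapped for both genes.

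*Perm1*, a muscle-specific regulator induced by PGC-1 and ERRs, was at 434, 338, 452, 463 and 444 CPM in MLPKO mice. It was at 419, 436, 418, 431 and 455 CPM in cRADΔ/Δ-MLPKO mice. Apart from MLPKO mouse 2 all mice fell into a narrow band, and the log2 fold change was 0.02 (95% interval −0.16 to 0.20, edgeR adjusted p = 0.924), or −0.05 without that mouse. The coefficient of variation was 11.9% in MLPKO and 3.48% in cRADΔ/Δ-MLPKO, and *Ppargc1a* (19.9% and 8.26%) and *Esrrg* (11.3% and 3.57%) also varied more among MLPKO mice. The order was the opposite for *Ppargc1b* (12.6% in MLPKO and 19.5% in cRADΔ/Δ-MLPKO), *Esrrb* (8.24% and 11.1%), *Ppard* (7.60% and 9.07%) and, by a small margin, *Tfam*. The difference in spread was not tested. MLPKO mouse 2 had the highest summed atrial markers (2440.4 CPM against 109 to 1790.2 in the other 4 MLPKO mice). It also had the highest summed erythroid markers (2798 CPM against 288 to 796). The part of both sums in the values of this mouse was not tested. Of the 5 atrial markers, 3 passed the filter, with 2 higher and 1 lower in cRADΔ/Δ-MLPKO (log2 fold change −2.05 to 0.88). The 5 markers include *Nppa*, which the paper lists among the foetal cardiac genes that were lower in cRADΔ/Δ-MLPKO hearts. A high atrial sum therefore need not mean atrial tissue. Whether the sum rests on 1 gene, or reflects atrial tissue, was not tested.

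**Figure D2:**
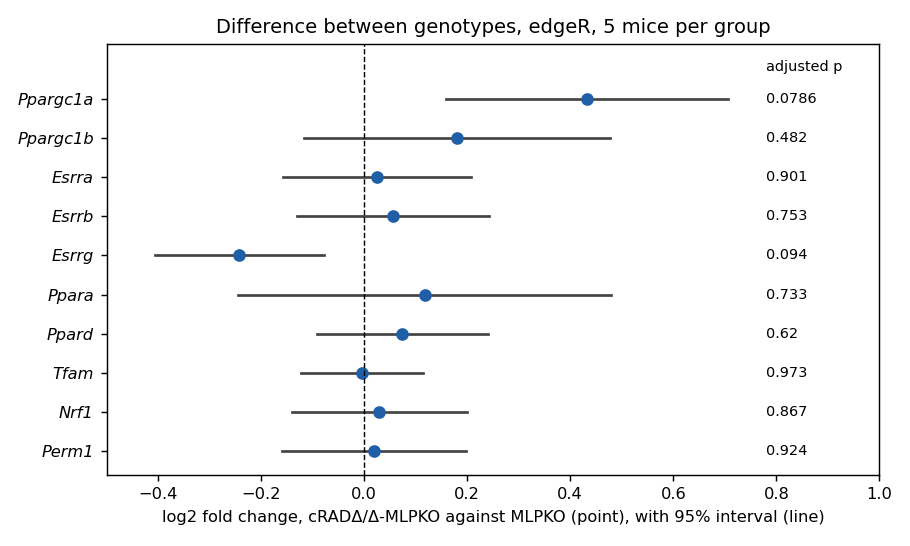
Log2 fold change of the 10 regulators (cRADΔ/Δ-MLPKO against MLPKO, edgeR, 5 mice per group) with lines for the 95% interval and the adjusted p at the right. The intervals of *Ppargc1a* (0.16 to 0.71) and *Esrrg* (−0.41 to −0.08) do not cross 0, and the other 8 do.

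Levels between genes were compared as CPM divided by the kilobases of annotated exon (RPKM). The order over the 10 mice ran from *Perm1* (90.2 ± 7.43, SD, n = 10) and *Esrra* (30.7 ± 2.73) through *Ppargc1a* (13.0 ± 2.64), *Esrrg* (9.91 ± 1.22), *Tfam* (8.67 ± 0.384), *Esrrb* (6.47 ± 0.615), *Ppara* (5.14 ± 0.997), *Ppard* (4.73 ± 0.396) and *Ppargc1b* (4.72 ± 0.810) to *Nrf1* (0.934 ± 0.0574). *Perm1* exceeded *Esrra* 2.94-fold and *Ppargc1b* exceeded *Nrf1* 4.99-fold in all 10 mice. Of the 9 neighbouring pairs, 6 differed within mice (two-sided exact sign-flip permutation test, adjusted p from 0.00439 to 0.0117, where 0.00195 is the smallest unadjusted p possible). *Ppargc1a* and *Esrrg* did not pass (ratio 1.29, exact permutation adjusted p = 0.0502, *Ppargc1a* higher in 8 of 10 mice), nor did *Ppara* and *Ppard* (ratio 1.07, exact permutation adjusted p = 0.319) or *Ppard* and *Ppargc1b* (ratio 1.01, exact permutation adjusted p = 0.781). The order depends on the exon length used. Per kilobase of the longest annotated transcript, *Perm1* (96.9 ± 7.98, SD, n = 10), *Esrra* (59.4 ± 5.27), *Ppargc1a* (13.4 ± 2.72), *Esrrg* (11.5 ± 1.40) and *Tfam* (9.77 ± 0.433) kept the first places and *Nrf1* (2.51 ± 0.154) the last, while *Esrrb* (9.10 ± 0.864) moved below *Ppara* (9.54 ± 1.85) and *Ppard* (9.54 ± 0.799). With that length 5 of the 9 neighbouring pairs differed, *Perm1* exceeded *Esrra* 1.63-fold, *Esrra* exceeded *Ppargc1a* 4.51-fold (2.40-fold by exon length) and *Ppargc1b* exceeded *Nrf1* 2.68-fold. Exons of *Esrra* overlap *Trmt112* on the opposite strand over 1479 bases and those of *Ppara* overlap *Cdpf1* over 1803 bases, and since the strand setting of the counting is not given, reads of these pairs cannot be told apart.

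**Figure D3:**
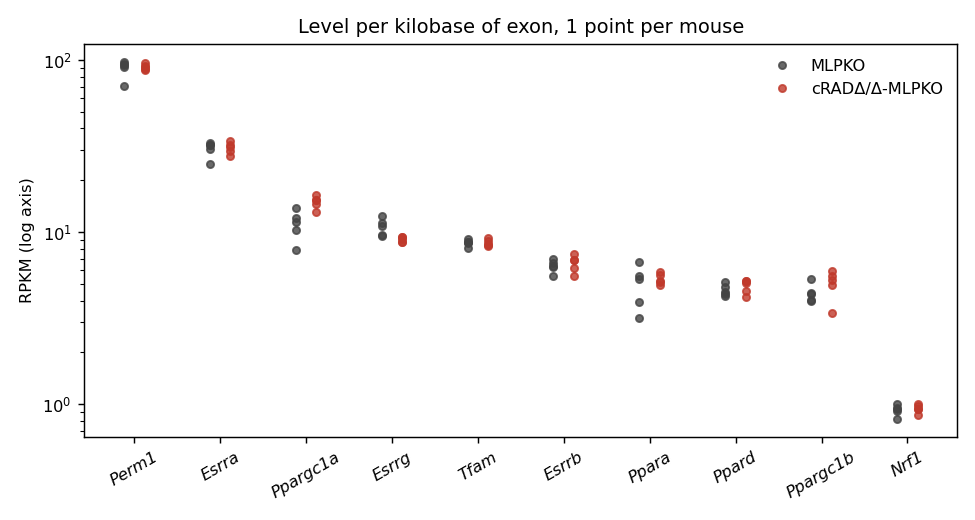
RPKM of the 10 regulators on a log axis, ordered by their mean over all mice, with 1 point per mouse in grey (MLPKO) and red (cRADΔ/Δ-MLPKO). *Perm1* lies highest at 71.0 to 97.5 and *Nrf1* lowest at 0.819 to 1.01.

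The make-up of each family was then expressed as a share of its summed RPKM, a measure added after the values of the genes were seen. *Ppargc1a* made up 72.3%, 74.6%, 79.4%, 74.7% and 74.4% of the PGC-1 pair in cRADΔ/Δ-MLPKO mice and 73.2%, 66.3%, 72.3%, 72.0% and 72.0% in MLPKO mice. The groups overlapped, with means of 75.1% ± 2.61 and 71.1% ± 2.77 (SD, n = 5 each, two-sided exact permutation p = 0.0238, 0.119 after adjustment over 5 shares). *Esrrg* made up 19.5% ± 0.891 of the ERR transcripts in cRADΔ/Δ-MLPKO and 22.7% ± 3.68 in MLPKO (SD, n = 5 each, exact permutation p = 0.0476, adjusted 0.119), with MLPKO mouse 2 at 29.0% and the other mice between 18.1% and 22.5%. *Esrra* held 66.3% and 63.9%, *Esrrb* 14.2% and 13.3%, and *Ppara* 52.5% and 50.9% of the PPAR pair, with exact permutation p-values of 0.183, 0.254 and 0.611 before adjustment. None of the 5 shares passed after adjustment. Without MLPKO mouse 2 the difference in the *Esrrg* share was −1.69 percentage points in place of −3.24, that in the *Esrra* share 0.956 in place of 2.43, and that in the *Ppara* share turned to −0.630, while the *Ppargc1a* share differed by 2.71 in place of 3.93 points.

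**Figure D4:**
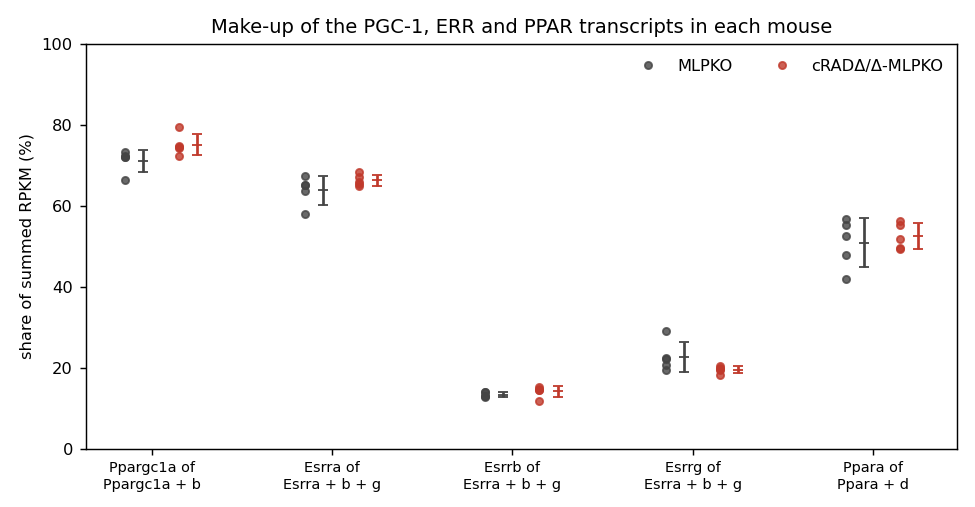
Share of summed RPKM (percent, axis from 0 to 100) held by each receptor or coactivator within its family, with 1 point per mouse and bars for mean and SD. *Esrra* holds the highest ERR share in every mouse, and MLPKO mouse 2 is the outlying point with 29.0% *Esrrg* and 58.0% *Esrra*.

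Over the 10 mice, the 45 pairs of regulators gave no correlation of log2 CPM that passed adjustment. *Ppargc1a* and *Esrrg* were inversely related (Pearson's r = −0.79, permutation p = 0.00645, adjusted 0.145, and Spearman's rho = −0.77, permutation p = 0.0124, adjusted 0.279). Their r was −0.57 without MLPKO mouse 2 and −0.23 without MLPKO mice 2 and 5. These 2 mice were the farthest from the *Ppargc1a* median. Leaving them out narrows its range, so the lower r cannot show that the relation rests on them. *Ppargc1a* and *Ppargc1b* were positively related (r = 0.67, permutation p = 0.0302, adjusted 0.272; rho = 0.83, permutation p = 0.00463, adjusted 0.208), with r = 0.68 without the same 2 mice. *Esrra* and *Perm1* had the highest r (0.86, permutation p = 0.00479, adjusted 0.145; rho = 0.58, permutation p = 0.0882, adjusted 0.570), which was 0.38 without MLPKO mouse 2 and cRADΔ/Δ-MLPKO mouse 1. Within genotypes, from deviations around each genotype's mean, r was −0.55 for *Ppargc1a* and *Esrrg*, 0.67 for the PGC-1 pair and 0.86 for *Esrra* and *Perm1*. *Ppargc1a* and *Nrf1* were the only pair that passed within genotypes (r = −0.88, permutation p = 0.0499 after adjustment over the 45 pairs). Over all 10 mice their r was −0.45 (permutation p = 0.187, adjusted 0.366), and −0.18 without MLPKO mice 2 and 5. Their rho was −0.41 (permutation p = 0.245, adjusted 0.813). The within-genotype p came from shuffling deviations freely across genotypes. It did not allow for the fitted genotype means, so it may be too small, and this pair was at the threshold.

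Among all genes tested, the profiles most like that of *Ppargc1a* over the 10 mice were *Tppp* (Pearson's r = 0.98), *Prdm16os* (0.98) and *Lifr*, a receptor of the interleukin-6 family (0.97). For *Perm1* they were *Lmod3*, which nucleates sarcomeric actin (0.98), *Fblim1* (0.98) and *Rapgef6* (0.96), and for *Esrra* *Carmil3* (0.98), *Ogdh*, a tricarboxylic acid cycle enzyme (0.96), and *Trak1*, a mitochondrial transport adaptor (0.96). *Ppara* was closest to *Cmtm4* (0.96), *Tmem268* (0.96) and *Kif5a* (0.95), and *Ppargc1b* to *Zfp711* (0.91), *Epg5* (0.90) and *Zfp275* (0.90). These values were picked as the highest of 13455 genes over 10 mice that share the same libraries, and serve as description only.

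The genes around the regulators were taken from 5 lists, with 119 genes reported here. None of them passed the edgeR test, against 2.74% of all genes. DESeq2 called 7, against 10.0% of all genes to which it gave an adjusted p. Of 27 co-regulators, receptor partners and upstream regulators, 13 were higher and 14 lower in cRADΔ/Δ-MLPKO (median log2 fold change −0.00). With upper quartile scaling 19 of 27 were higher, and without single mice the median lay between −0.00 and 0.03. An unadjusted edgeR p under 0.05 was found for 3, against 21.6% of all genes. DESeq2 called 2, *Ncor1* and *Mef2c*, against 10.0% of all genes. The 3 with the smallest p were *Ncor1* (log2 fold change −0.21, edgeR adjusted p = 0.0928), a corepressor that binds unliganded nuclear receptors, *Mef2c* (−0.28, edgeR adjusted p = 0.0951), a muscle transcription factor that activates *Ppargc1a*, and *Klf15* (0.21, edgeR adjusted p = 0.226), a Krüppel-like factor of lipid metabolism. *Ncor1* was at 156 to 177 CPM in MLPKO and 124 to 150.5 CPM in cRADΔ/Δ-MLPKO, without overlap. It was the only 1 of the 27 genes with such separation, which was seen in 6.61% of all genes. The third PGC-1 relative, *Pprc1*, did not pass the test (log2 fold change −0.05, edgeR adjusted p = 0.801).

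Of 26 PPAR-linked fatty acid genes, 20 were higher (76.9%, against 52.1% of all genes) and 6 lower (median log2 fold change 0.13). None passed edgeR or DESeq2, and none had an unadjusted edgeR p under 0.05, against 21.6% of all genes. The 3 with the smallest p were the uncoupling protein gene *Ucp2* (log2 fold change 0.36, edgeR adjusted p = 0.240), the very long-chain acyl-CoA dehydrogenase gene *Acadvl* (0.19, edgeR adjusted p = 0.247) and the acyl-CoA thioesterase gene *Acot2* (0.27, edgeR adjusted p = 0.329). All 3 overlapped between the genotypes, with *Ucp2* at 37.5 to 44.5 CPM in MLPKO and 36.5 to 80.3 CPM in cRADΔ/Δ-MLPKO. Without MLPKO mouse 2, 14 of 26 genes were higher and the median was 0.02. The median was 0.07 without cRADΔ/Δ-MLPKO mouse 4 and 0.08 without MLPKO mouse 5.

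Of 32 ERR-linked genes of the tricarboxylic acid cycle and respiratory chain, 29 were higher in cRADΔ/Δ-MLPKO (90.6%, against 52.1% of all genes), with a median log2 fold change of 0.09. None passed edgeR, 7 had an unadjusted p under 0.05 (21.6% of all genes), and DESeq2 called 2 (10.0% of all genes). The 3 with the smallest p were the cytochrome c oxidase subunits *Cox8b* (log2 fold change 0.34, edgeR adjusted p = 0.0684) and *Cox4i1* (0.20, edgeR adjusted p = 0.109) and the ATP synthase subunit *Atp5po* (0.18, edgeR adjusted p = 0.124). *Cox4i1* was at 872 to 1020 CPM in MLPKO and 1053 to 1215 CPM in cRADΔ/Δ-MLPKO, without overlap. Such separation was seen for 2 of the 32 genes, and for 6.61% of all genes. Without MLPKO mouse 2 the list had 26 of 32 genes higher, and without cRADΔ/Δ-MLPKO mouse 4 it had 25 of 32. The median was 0.07 in both cases.

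Among 21 genes that transcribe and maintain mitochondrial DNA, the group in which TFAM acts, 12 were higher and 9 lower (median log2 fold change 0.07). Of all genes, 52.1% were higher. None of the 21 passed edgeR or DESeq2, and 1 had an unadjusted edgeR p under 0.05 (21.6% of all genes). The median was 0.04 without MLPKO mouse 2, MLPKO mouse 4 or cRADΔ/Δ-MLPKO mouse 4. The smallest p-values were those of the helicase *Twnk* (log2 fold change 0.25, edgeR adjusted p = 0.114), the exonuclease *Mgme1* (0.24, edgeR adjusted p = 0.236) and *Mterf3* (0.15, edgeR adjusted p = 0.271), a repressor of mitochondrial transcription. The 13 mRNAs encoded by mitochondrial DNA were higher in 12 cases (92.3%, against 52.1% of all genes), with a median log2 fold change of 0.14. It was 10 of 13 without cRADΔ/Δ-MLPKO mouse 4 (median 0.11) and 13 of 13 without MLPKO mouse 4 (median 0.20). Levels in MLPKO hearts differed widely, with *mt-Nd4l* at 37.4 CPM and *mt-Co1* at 71021 CPM. None of these mRNAs passed edgeR, and 3 had an unadjusted edgeR p under 0.05 (21.6% of all genes). DESeq2 called 3 (10.0% of all genes). These were *mt-Nd2* (log2 fold change 0.29, edgeR adjusted p = 0.0767), *mt-Nd1* (0.29, edgeR adjusted p = 0.0979) and *mt-Co1* (0.25, edgeR adjusted p = 0.118). Genes encoded by mitochondrial DNA held 22.0% ± 0.552 of all counts in cRADΔ/Δ-MLPKO and 18.3% ± 2.09 in MLPKO hearts (SD, n = 5 each), a comparison added after the values were seen. The ranges, 21.4% to 22.6% and 15.8% to 21.2%, did not overlap (two-sided exact permutation p = 0.00794, the smallest that 252 splits allow). Such separation was seen in 6.61% of all genes tested. This share is of raw counts. After TMM scaling, the summed CPM of the 13 mRNAs overlapped, at 196911 to 220084 in cRADΔ/Δ-MLPKO and 163662 to 210120 in MLPKO hearts.

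**Figure D5:**
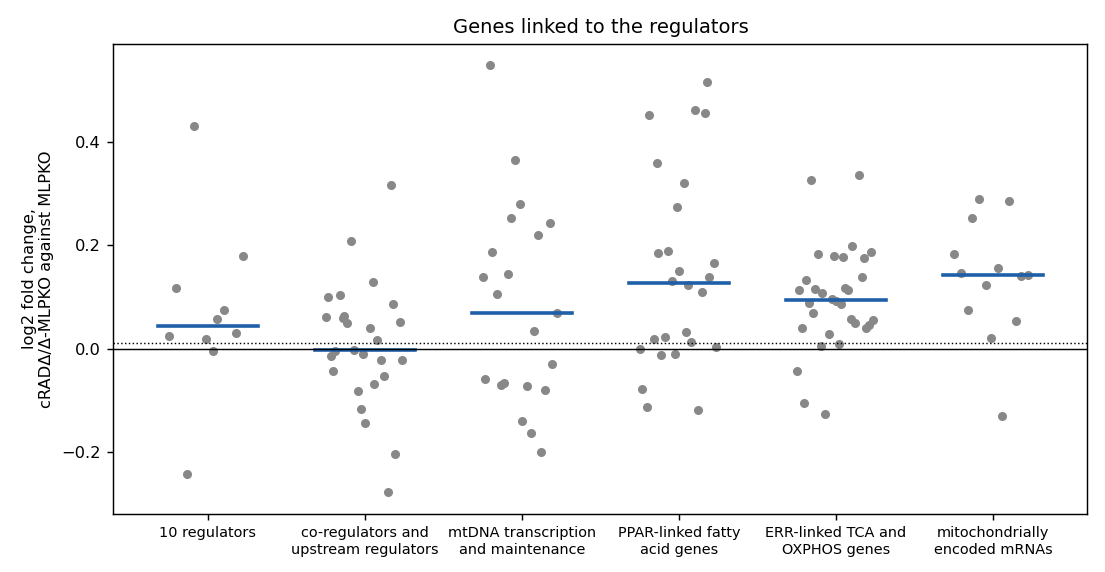
Log2 fold change (cRADΔ/Δ-MLPKO against MLPKO) of each gene in the 10 regulators and the 5 linked lists, with blue bars for the list medians and a dotted line for the median of all genes tested (0.01). None of the genes shown had an edgeR adjusted p under 0.05, and the medians run from −0.00 in co-regulators to 0.14 in mitochondrially encoded mRNAs.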

How the data were processed

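The authors aligned reads of polyadenylated RNA to GRCm39 with STAR after FastQC, obtained gene counts with featureCounts, and deposited these raw counts, not normalized, for 5 mice per genotype. Settings for strand and read pairs are not given in the sources used here. Among low counts (1 to 20), even numbers made up at least 73.7% in each library. Of 60676 genes, 3491 without a value were left out. Genes were named by GENCODE M39, which held 56629 of the 57185 others.

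The count threshold and the exclusion of Gm and Rik names followed the study's methods: a gene needed over 10 counts in 6 or more mice, which kept 13455 genes. The study also left out genes without annotation, a step whose list is not given and that was not applied here, so the genes tested may differ from the study's. After TMM scaling, genotypes were compared by edgeR 4.0.16 (R 4.3.3; quasi-likelihood F-test; Benjamini-Hochberg). DESeq2 1.42.0, which the authors used, and limma-voom (limma 3.58.1) were alternatives, with other scalings and filters, halved counts, the longest annotated transcript as gene length, a replicate block and each mouse left out. The edgeR fit was tested on simulated counts. CPM refers to counts scaled to the TMM-normalized library size over the tested genes, and log2 CPM to a prior count of 2. Permutation p-values of correlations used 100000 resamples. Tables and figures were made in Python 3.11.15 with pandas 2.3.3, scipy 1.17.1, matplotlib 3.10.9 and numpy 2.4.6.

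The 10 regulators, the lists and the markers were chosen with earlier results of these data known. The genes named are the 10 regulators, in each linked list those past the edgeR threshold or else the 3 with the smallest p, the 3 genes most like 5 of the regulators, and *Rrad* and *Csrp3*. *Pparg*, *Pprc1* and marker genes were named in addition. Each label is a separate mouse, and no 2 libraries of the same genotype agreed within sampling noise. Mouse numbers are shared by the genotypes, but same-numbered mice did not deviate together. Results for 2 genes of the linked lists are not reported here, and counts over these lists leave them out. Protein sequences were not analysed here.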

Additional observations from a re-analysis of the deposited data

Results flagged for a closer look

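*Perm1* in MLPKO mouse 2 was flagged as a value far from the rest of its group. It was at 338 CPM, the next MLPKO mouse was at 434 CPM, and the gap took 0.764 of the range of the group, above Dixon's 95% critical value of 0.71 for 5 samples. This was 1 flag among 20 groups tested (10 genes in 2 genotypes), and chance flags about 1 in 20. The same mouse had the lowest *Ppargc1a*, *Ppargc1b*, *Ppara*, *Esrra*, *Esrrb* and *Tfam* and the highest *Esrrg* and *Nrf1* of its group. Values without it are given in the report for *Ppargc1a*, *Ppara*, *Esrra*, *Esrrg* and *Perm1*, the family shares and several of the linked lists.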

How the results depend on the processing

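Across 21 alternatives, *Ppargc1a* stayed higher (log2 fold change 0.33 to 0.52, adjusted p 0.0203 to 0.162) and *Esrrg* lower (−0.28 to −0.19, adjusted p 0.0409 to 0.186), and *Ppargc1b*, *Esrrb* and *Ppard* kept their sign without passing. With DESeq2, 1298 genes in all, 2 of the 10 regulators (*Ppargc1a*, 0.43, adjusted p = 0.0203, and *Esrrg*, −0.25, adjusted p = 0.0409) and 7 of the 119 linked genes passed, against 369, 0 and 0 with edgeR, and the cause was not tested. Leaving out 1 mouse gave 47 (without MLPKO mouse 5) to 826 genes in all (without MLPKO mouse 4), 0 to 1 regulators, 0 to 2 linked genes (*mt-Nd1* and *mt-Nd2* without MLPKO mouse 4, *Cox8b* without MLPKO mouse 5) and 0 to 1 correlated pairs of regulators, and the *Ppargc1a* log2 fold change then ran from 0.33 to 0.52. Deviations from the genotype mean also gave 1 correlated pair. Signs turned for some of the regulators. Without single mice the lowest and highest log2 fold changes were −0.040 and 0.062 for *Esrra*, −0.011 and 0.065 for *Nrf1*, −0.054 and 0.051 for *Perm1*, −0.0046 and 0.25 for *Ppara*, and −0.030 and 0.015 for *Tfam*. *Tfam* was also at 0.021 with upper quartile scaling and 0.00056 with the filter of edgeR, and the *Ppara* share of the PPAR pair differed by −0.63 percentage points without MLPKO mouse 2. The family shares were also recomputed, as was the mitochondrially encoded share, without each mouse, both added after the data were seen. The latter stayed 3.06 to 4.43 percentage points higher, and 3 family shares (*Ppargc1a*, *Esrra* and *Esrrg*) passed only without MLPKO mouse 3 (exact permutation adjusted p = 0.0397 each). The correlation of deviations between same-numbered mice was −0.04 to 0.15, so the numbers were not taken to pair the mice. With the mouse number as a replicate block, 281 genes, none of the regulators and 0 linked genes passed, with log2 fold changes of 0.45 for *Ppargc1a* (adjusted p = 0.0644) and −0.24 for *Esrrg* (adjusted p = 0.0886). The regulators had 334 or more counts in each mouse, and halved counts gave the same number of passing genes (369, with 0 regulators). With the longest annotated transcript as length, 5 neighbouring pairs of regulators differed in level, against 6.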
